A study of Cricetiscus sungorus with 41 samples.

Results

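Blood taken early in the light phase was compared with blood taken in the dark phase in Djungarian hamsters (Phodopus sungorus) that were not torpid on the day of sampling. The 10 libraries labelled condition NT were used, 6 from the time point ZT01 and 4 from ZT16, out of 41 libraries in the series, and they were chosen by these labels alone. Zeitgeber time (ZT) counts hours from lights on. The animals were wild type and lived on a winter-like photoperiod with 8 h of light per day, so ZT01 fell in the light and ZT16 in the dark. They were 32 ± 4 weeks old and carried body temperature transmitters. All 36 short-day animals of the series, these 10 included, had shown spontaneous daily torpor before, and the NT animals were those that stayed normothermic on the sampling day. The NT group is therefore a torpor-capable animal on a torpor-free day, not an animal that never uses torpor. The other short-day animals, labelled HT, were in or around a torpor bout, and at ZT01 they were entering it. Each library came from the blood of 1 animal, drawn from the right heart ventricle after CO2 inhalation and pelleted. Photoperiod hours, transmitters and the site of puncture are stated for the animals sampled at ZT04 and are taken to hold for these, which the series describes as short-day acclimated as well. The labels give 4 males and 2 females at ZT01 and 4 males at ZT16, so every female stood in the ZT01 group.

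The circadian clock is a feedback loop in which the activators CLOCK and BMAL1 (ARNTL) switch on the genes of their own repressors, the PER and CRY proteins, and blood cells carry this loop as most tissues do. Time of day also reaches blood cells from outside. Glucocorticoid hormones are released in a daily rhythm and act on genes such as FKBP5, TSC22D3 and PER1 through the glucocorticoid receptor, and in nocturnal rodents the daily rise falls around the onset of the dark phase. White blood cells also move between blood and tissues over the day, a process in which the chemokine receptor CXCR4 takes part, as known from mice. In bulk blood, fewer cells of a type and less RNA per cell cannot be told apart.

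No gene passed the threshold between ZT01 and ZT16. Of 20220 gene symbols in the table, 13777 had a count in at least 1 of the 10 libraries and 10690 had enough counts to be tested with edgeR's quasi-likelihood test. At a Benjamini-Hochberg adjusted p of 0.05, 0 genes were called (0% of those tested). At an unadjusted p under 0.05 there were 393 genes higher at ZT01 (3.68%) and 402 lower (3.76%), together 795 or 7.44%. The log2 fold change, coded as ZT01 minus ZT16, was above 0 in 51.4% of the genes, below 0 in 48.6% and had a median of 0.01. For 71.0% of the genes the unadjusted 95% interval of the difference lay wholly within 1 of 0 on the log2 scale, so that a 2-fold difference in either direction was outside it. The ranges of the 6 ZT01 and the 4 ZT16 animals did not overlap in 171 genes (1.60%), 99 with all ZT01 animals higher (0.926%) and 72 with all ZT01 animals lower (0.674%). Other tools called few genes. DESeq2, the tool of the study, called 3 (0.0218%), FKBP5, KCNMB1 and CXCR4, with 931 (6.76%) at an unadjusted p under 0.05, and limma voom with sample quality weights called 0, with 1053 (9.85%) at an unadjusted p under 0.05. A fit that took its spread from all 36 HT and NT animals called 2 genes, FKBP5 and NOC4L.

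The libraries held 53218387 to 70007351 counts, of which haemoglobin genes took 88.0% to 93.0%. Counts outside haemoglobin ran from 3702931 to 7560044 per library. NT ZT01 replicate 4, a female, stood apart. It had the lowest count outside haemoglobin, the highest haemoglobin share and a median correlation of 0.908 with the other libraries, where the others had at least 0.939. The haemoglobin share was 90.3% ± 1.45 (SD, n = 6) at ZT01 and 89.5% ± 1.05 (SD, n = 4) at ZT16, which left ZT01 higher by 0.773 points of percentage (exact permutation of the animals, 2-sided, p = 0.448, where 0.00476 is the smallest p this design can give). Without NT ZT01 replicate 4 the difference was 0.217 points. Values below are normalised CPM, that is, counts per 1000000 counts of the library total after scaling by the trimmed mean of M values (TMM). They are not divided by transcript length, so levels of different genes are not compared. The TMM factor was 0.458 in NT ZT01 replicate 4 and 0.722 in NT ZT16 replicate 1, where the other libraries had 0.897 to 1.16. A low factor scales all CPM of a library up, so the levels of these 2 animals were raised most. Since blood was drawn through the heart, heart muscle genes were checked. Of 20 such genes 3 had enough counts to be tested. These 3 had log2 fold changes above 0 with a median of 0.50, and 0 had an unadjusted p under 0.05 in edgeR. The summed level of all 20 ran from 3.34 to 15.4 CPM at ZT01 and from 3.54 to 9.49 CPM at ZT16. The cardiac troponin TNNT2 lay between 0.793 and 12.3 CPM at ZT01 and between 1.92 and 7.79 CPM at ZT16, and TNNI3 reached at most 0.447 CPM. Of 14 endothelial and stromal genes 3 were tested, ENG at 1.48 to 2.96 CPM and PDGFRB at 1.81 to 3.75 CPM at ZT01 among them, and of 11 liver plasma proteins only transferrin (TF) was, at up to 1.64 CPM. The part of these cells in the results was not tested.

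The gene of lowest p was FKBP5. It encodes a co-chaperone that binds the glucocorticoid receptor complex, and its transcription is raised by glucocorticoids. In the 6 ZT01 animals FKBP5 stood at 1.37, 0.717, 1.31, 0.821, 1.06 and 1.21 CPM. In the 4 ZT16 animals it stood at 5.21, 2.18, 2.95 and 2.98 CPM. All ZT01 animals lay below all ZT16 animals, and the highest ZT16 value, replicate 1, was far above the other 3. The means were 1.08 ± 0.265 CPM (SD, n = 6) and 3.33 ± 1.31 CPM (SD, n = 4), a log2 fold change of -1.62 ± 0.25 (SE) with a 95% interval from -2.16 to -1.09. The adjusted p in edgeR was 0.129. DESeq2 gave an adjusted p of 0.000131 and the fit of 36 animals 0.0234, and over all 21 alternatives the adjusted p ran from 0.000131 to 0.723. The log2 fold change ran from -1.78 to -1.32, was -1.63 in males alone and was nearest to 0 without NT ZT16 replicate 1.

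CXCR4, the receptor for the chemokine CXCL12 that holds leukocytes in bone marrow and tissues, was next. Its level at ZT01 was 3.85, 5.46, 5.60, 3.45, 4.28 and 4.99 CPM, and at ZT16 it was 9.59, 9.60, 7.78 and 6.17 CPM. Here too the groups did not overlap, with a gap between the highest ZT01 animal at 5.60 and the lowest ZT16 animal at 6.17 CPM. The log2 fold change was -0.85 ± 0.17 (SE), with an adjusted p of 0.621 in edgeR and 0.042 in DESeq2 and a range over the alternatives from 0.042 to 0.88. In males alone it was -0.85.

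KCNMB1, a regulatory subunit of a calcium-activated potassium channel known from smooth muscle, was counted little, with 2 to 108 counts per library. It lay at 0.0298 to 0.216 CPM at ZT01 with a median of 0.0729, and at 0.532, 0.524, 0.317 and 1.73 CPM at ZT16. The groups did not overlap, and ZT16 replicate 4 was far above the rest. The log2 fold change of -2.95 ± 0.60 (SE, adjusted p 0.621) became -2.18 without that animal, and the adjusted p was 0.0158 in DESeq2 within a range from 0.0158 to 0.88 over the alternatives. CLIP2, a microtubule-binding linker protein, lay at 1.71 to 2.77 CPM at ZT01 and at 5.05, 3.64, 2.91 and 4.42 CPM at ZT16, with no overlap and a log2 fold change of -0.94 ± 0.19 (SE). GOLGA3, a Golgi protein, lay at 0.493 to 1.74 CPM at ZT01 and at 2.70, 2.28, 2.12 and 2.48 CPM at ZT16, again without overlap, with a log2 fold change of -0.95 ± 0.24 (SE). The clock gene PER1 completed the 6 genes of lowest p on this side and is described with the clock. CLIP2, GOLGA3 and PER1 had adjusted p-values of 0.621 to 0.656 in edgeR.

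On the other side the 6 genes of lowest p were ATP5MC1, NOC4L, MRPS11, ATP6V0B, CIAO3 and SPAG7, each with an adjusted p of 0.656 in edgeR. ATP5MC1 encodes subunit c of the mitochondrial ATP synthase. It lay at 3.04 to 4.35 CPM at ZT01 with a median of 3.66, and at 2.30, 2.23, 2.49 and 1.76 CPM at ZT16, a log2 fold change of 0.72 ± 0.16 (SE) with no overlap. NOC4L, a factor of small ribosomal subunit assembly, lay at 2.29 to 4.52 CPM against 1.95, 1.75, 1.43 and 1.63 CPM, a log2 fold change of 0.86 ± 0.20 (SE). It was called only in the fit of 36 animals, with an adjusted p of 0.0245 in a range from 0.0245 to 0.88. The highest NOC4L value belonged to NT ZT01 replicate 4, and without it the log2 fold change was 0.73.

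MRPS11, a protein of the small mitochondrial ribosomal subunit, lay at 0.656 to 1.31 CPM at ZT01 and at 0.443, 0.459, 0.317 and 0.353 CPM at ZT16, a log2 fold change of 1.28 ± 0.30 (SE). ATP6V0B, a subunit of the proton pump of lysosomes and other vesicles, lay at 6.21 to 8.71 CPM against 5.01, 5.88, 4.16 and 5.08 CPM, a log2 fold change of 0.61 ± 0.15 (SE). SPAG7 lay at 0.878 to 1.85 CPM against 0.532, 0.590, 0.554 and 0.785 CPM, with a log2 fold change of 1.08 ± 0.26 (SE). In these 3 genes every ZT01 animal was above every ZT16 animal. CIAO3, which acts in the assembly of cytosolic iron-sulphur proteins, lay at 1.75 to 3.13 CPM against 1.33, 1.20, 1.80 and 1.25 CPM, and the groups touched there, since ZT16 replicate 3 was above ZT01 replicate 6. Its log2 fold change was 0.86 ± 0.21 (SE).

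**Figure D1:**
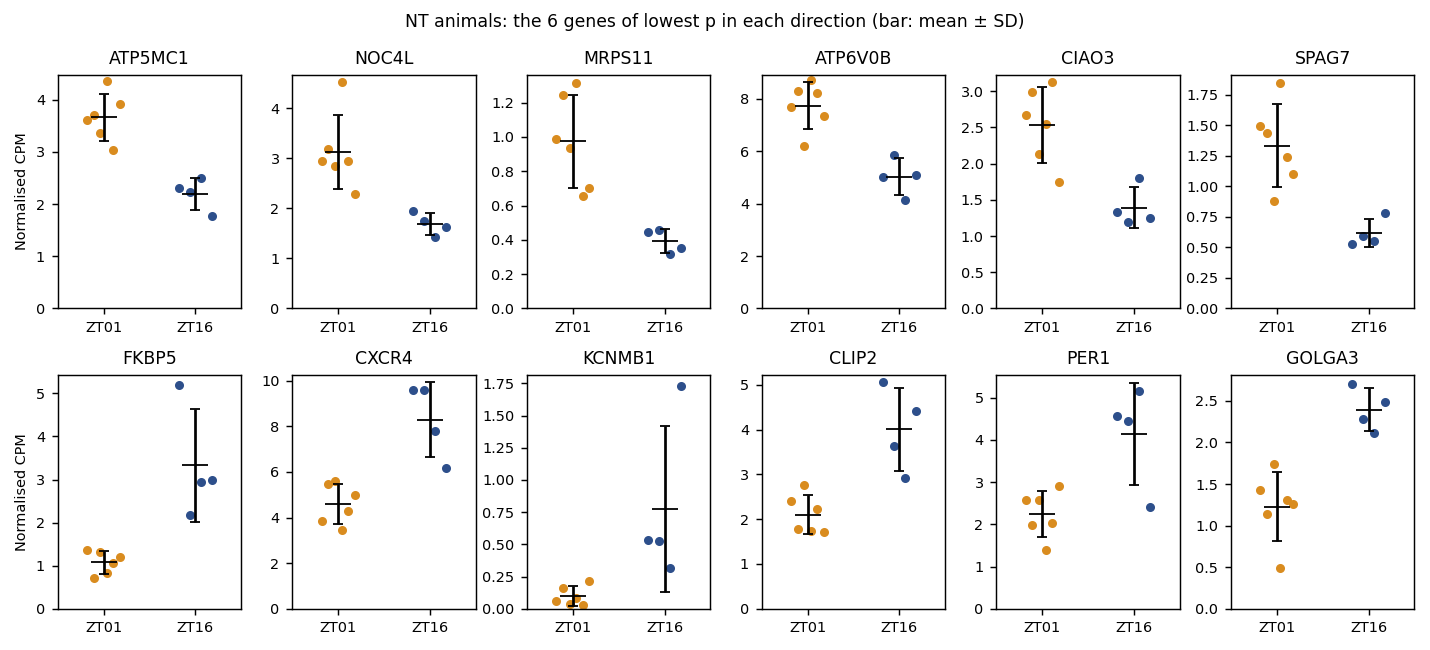
Normalised CPM (y axis, linear from 0) of the 6 genes of lowest p in each direction in NT animals at ZT01 (6 points) and ZT16 (4 points), with bars for the mean ± SD. The ranges do not overlap except in CIAO3 and PER1, and 0 of these genes passed the adjusted threshold in edgeR.

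The NT animals sampled at ZT04 and ZT07, 4 each, show where these levels lay later in the light phase, as a description with no test. Mean FKBP5 was 1.08 CPM at ZT01, 1.59 ± 0.646 (SD) at ZT04, 2.73 ± 1.10 at ZT07 and 3.33 CPM at ZT16. PER1 had the same order, with means of 2.25, 2.76, 3.58 and 4.14 CPM, and at ZT07 its 4 animals lay close together (SD 0.154). CXCR4 was at 4.61, 7.38, 7.12 and 8.29 CPM, with a wide spread at ZT04 (SD 3.82). The ranges of neighbouring times overlapped, as for FKBP5 between ZT04 (0.915 to 2.35 CPM) and ZT07 (1.82 to 4.03 CPM). ATP5MC1 was at 3.66, 3.69, 3.52 and 2.20 CPM, so its light-phase means lay together and the dark-phase mean lay below them.

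**Figure D2:**
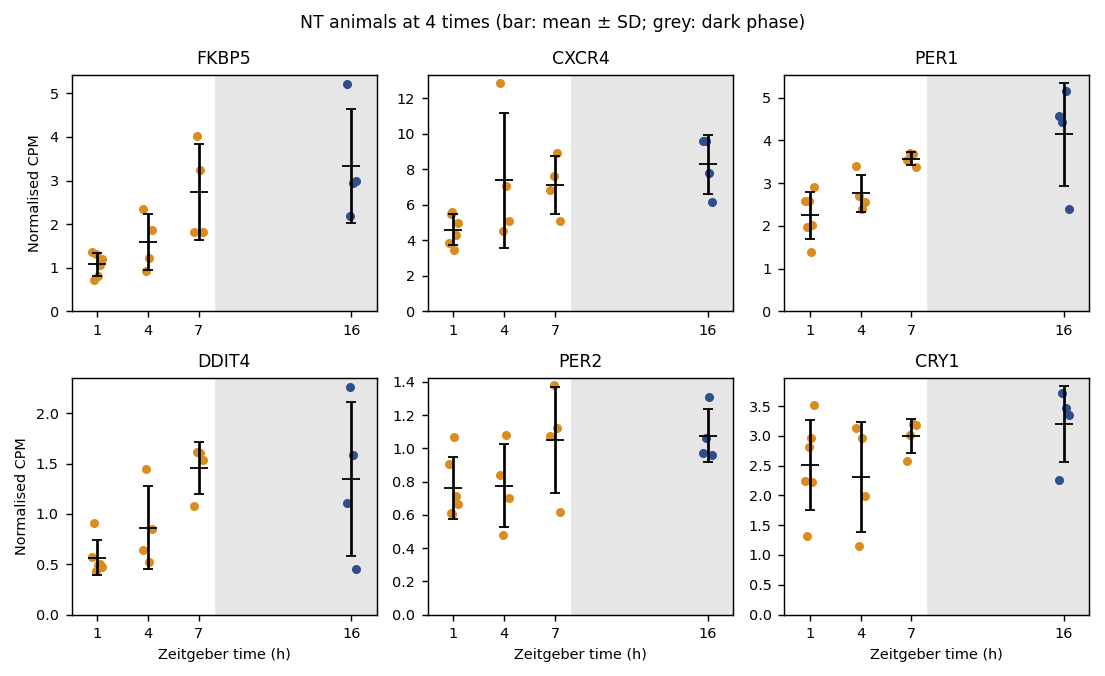
Normalised CPM (y axis, linear from 0) of FKBP5, CXCR4, PER1, DDIT4, PER2 and CRY1 in NT animals against zeitgeber time in hours, with 1 point per animal and bars for the mean ± SD. The ZT01 mean is the lowest of the 4 in each gene except CRY1, where it is 2.51 CPM against 2.31 CPM at ZT04.

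Of the 32 symbols listed for the clock 23 were tested, 0 were called, and 1 (PER1) had an unadjusted p under 0.05. The list median was 0.05, with 14 genes above 0 and 9 below. PER1, a repressor of the loop that is also an immediate target of light and glucocorticoid signals, lay at 2.58, 1.97, 2.58, 1.40, 2.03 and 2.92 CPM at ZT01 and at 4.56, 4.44, 5.17 and 2.40 CPM at ZT16. Of the ZT16 animals 3 were above all ZT01 animals, and replicate 4 lay among them. The log2 fold change was -0.88 ± 0.22 (SE, adjusted p 0.656) and -1.07 without that animal. PER2, the second repressor of this family, was at 0.762 ± 0.187 CPM (SD, n = 6) and 1.08 ± 0.160 CPM (SD, n = 4), a log2 fold change of -0.53 ± 0.25 (SE, unadjusted p = 0.0504, adjusted p 0.671 in edgeR). PER3 was near the limit of detection, from 0 to 0.487 CPM at ZT01 and from 0.262 to 0.709 CPM at ZT16, with a log2 fold change of -0.82 ± 0.63 (SE). The 3 PER genes thus had estimates below 0, none of them past the threshold.

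CRY1, a partner of the PER proteins, had a log2 fold change of -0.37 ± 0.23 (SE) with overlapping groups, at 2.51 ± 0.756 CPM and 3.20 ± 0.644 CPM, and CRY2 had one of 0.01 ± 0.20 (SE). Among the activators, ARNTL was at 2.08 ± 0.504 CPM (SD, n = 6) and 1.86 ± 0.382 CPM (SD, n = 4), with a log2 fold change of 0.14 ± 0.22 (SE). CLOCK gave 0.08 ± 0.26 and its paralogue NPAS2 0.37 ± 0.28 on the same scale (log2 fold change ± SE). The intervals of ARNTL, CLOCK and NPAS2 lay within 1 of 0. NR1D1 (REV-ERB alpha), the repressor of ARNTL, was at 0.557 ± 0.275 CPM and 0.497 ± 0.200 CPM, a log2 fold change of 0.13 ± 0.44 (SE) whose interval did not exclude a 2-fold difference. NR1D2 gave 0.16 ± 0.16 (log2 fold change ± SE), at 2.65 CPM at ZT01 and 2.34 CPM at ZT16, below its means of 3.67 CPM at ZT04 and 3.65 CPM at ZT07. RORA, the activator that competes with the REV-ERB proteins, gave 0.05 ± 0.41.

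CIART, a further repressor, had a log2 fold change of 0.75 ± 0.41 (SE), BHLHE40 0.10 ± 0.22 and BHLHE41 0.78 ± 0.57, the last from levels of 0.0443 to 0.429 CPM. NFIL3, an output factor, lay at 0.387 to 0.821 CPM at ZT01 and at 1.73, 0.999, 0.950 and 0.224 CPM at ZT16, so ZT16 held both the highest and the lowest animals, with a log2 fold change of -0.81 ± 0.42 (SE). TEF, of the same output arm, gave 0.03 ± 0.29. Of the kinases, ubiquitin ligases and other modifiers, CSNK1D gave -0.06 ± 0.12, BTRC 0.16 ± 0.43, FBXW11 -0.14 ± 0.24, TIMELESS 0.20 ± 0.25, USP2 0.61 ± 0.55 and NOCT -0.10 ± 0.65 (log2 fold change ± SE). The unadjusted 95% intervals of 13 of the 23 genes lay within 1 of 0. DBP (0 to 6 counts per library), HLF (0 to 14) and ARNTL2 (0 to 16) were too low to test, and RORB and CSNK1E are listed at 0 in all 10 libraries. The symbols BMAL1, BMAL2 and FBXL21P, are not row names of the table.

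**Figure D3:**
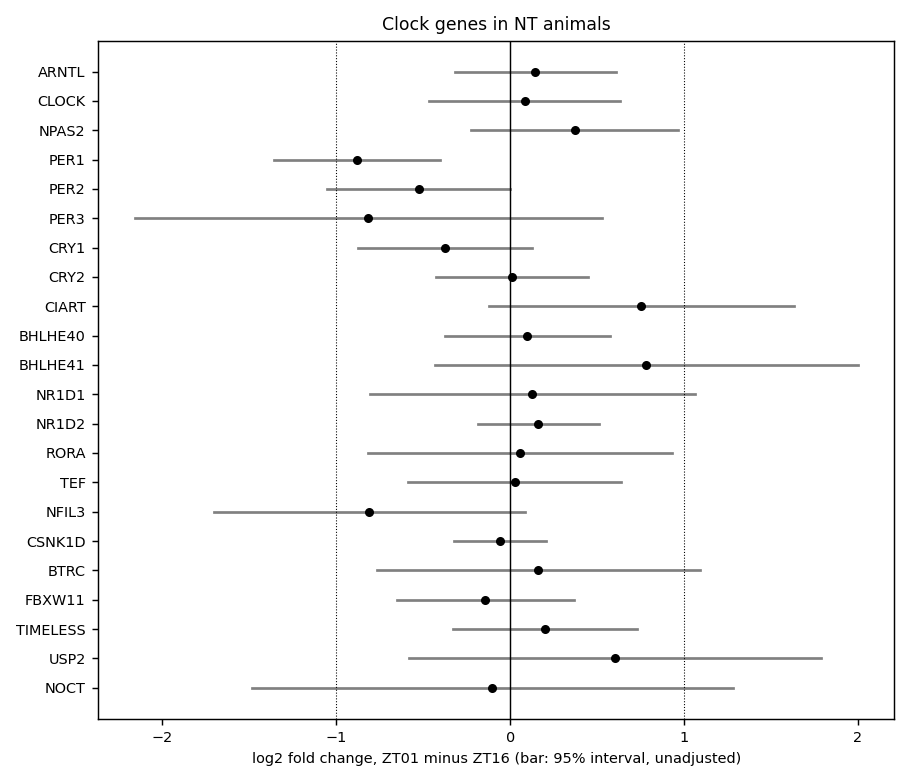
Log2 fold change (ZT01 minus ZT16, x axis) of 22 clock genes in NT animals, with unadjusted 95% intervals, a solid line at 0 and dotted lines at -1 and 1. Among these genes PER1 has the only interval that leaves 0 out.

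Because FKBP5 led the comparison, the other glucocorticoid targets were read beside it. Of 20 tested genes on this list 0 were called, 5 had an unadjusted p under 0.05 with lower values at ZT01, where 3.76% of all genes did, and 0 with higher values. The 5 were FKBP5, DDIT4, IRS2, PIK3IP1 and KLF13, of which IRS2, PIK3IP1 and KLF13 were singled out after their values were seen. FKBP5 prompted the look at this list, so its place among the 5 is not separate evidence. DDIT4, an inhibitor of mTORC1 signalling, lay at 0.573, 0.906, 0.429, 0.493, 0.507 and 0.469 CPM at ZT01 and at 1.11, 2.26, 1.58 and 0.449 CPM at ZT16. ZT16 replicate 4 was as low as the ZT01 animals and the other 3 were above all of them. The log2 fold change was -1.25 ± 0.37 (SE, adjusted p 0.656 in edgeR). IRS2, an adaptor of the insulin receptor, lay at 0.493 to 1.86 CPM and at 2.24, 2.52, 1.92 and 2.18 CPM with no overlap, a log2 fold change of -0.72 ± 0.25 (SE).

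PIK3IP1, an inhibitor of PI3 kinase, gave -0.43 ± 0.19 and the transcription factor KLF13 -0.33 ± 0.15 (log2 fold change ± SE). TSC22D3 (GILZ), a widely used glucocorticoid marker, lay at 22.7 to 42.5 CPM and at 32.2, 41.7, 44.7 and 31.2 CPM, with a log2 fold change of -0.33 ± 0.19 (SE), and DUSP1, a phosphatase induced by the same hormones, gave -0.45 ± 0.30. Both of these, too, were singled out after their values were seen. The list as a whole did not lean one way, with 10 genes above 0, 10 below and a median of -0.12. The members named here all lay below 0, so they do not stand for the list. Intervals on it reached from -2.16 to 2.49. Without NT ZT16 replicate 1 the median was 0.04, and 5 genes again had an unadjusted p under 0.05 on the lower side (2.53% of all genes). In males alone the median was -0.01, with 3 such genes on the lower and 1 on the higher side (3.79% and 3.35% of all genes). Immediate early genes, which respond within minutes to stimuli that include handling, had a median of 0.08 over 24 tested genes with 0 called. KLF6 and KLF2 had the lowest p among them, with log2 fold changes of 0.40 ± 0.16 and 0.37 ± 0.16 (SE).

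**Figure D4:**
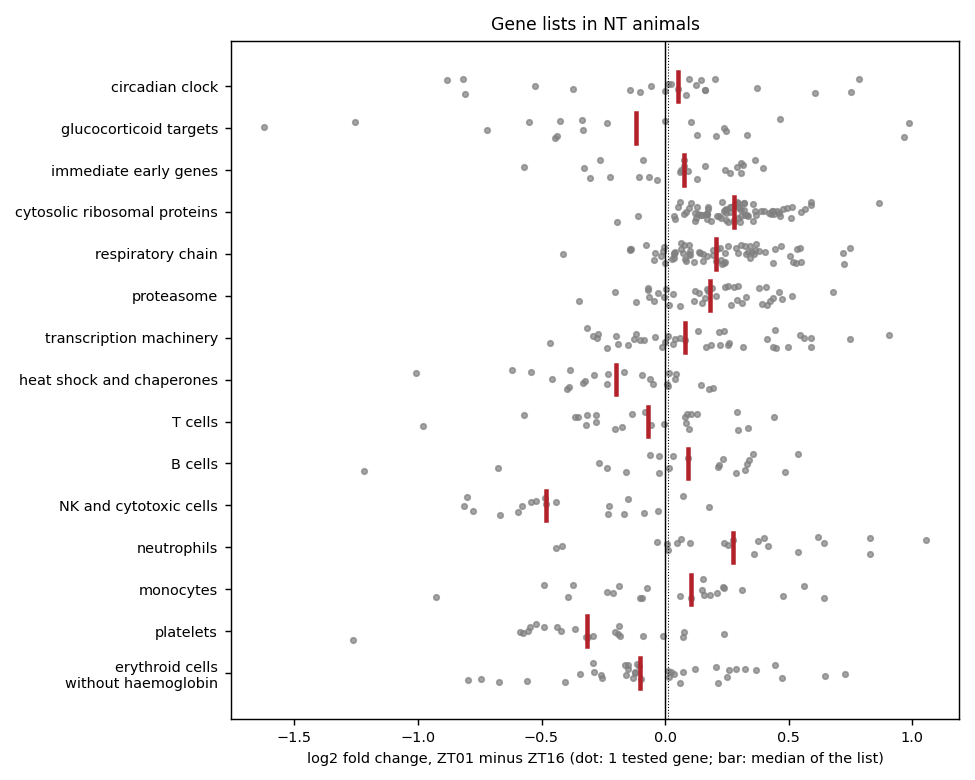
Log2 fold change (ZT01 minus ZT16, x axis) of the tested genes of 15 lists in NT animals, 1 dot per gene, with a red bar at the median of the list and a dotted line at the median of all genes tested. Cytosolic ribosomal proteins lie nearly all above 0 (median 0.28), and the NK and cytotoxic list (median -0.48) and the platelet list (median -0.32) lie mostly below.

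Cytosolic ribosomal proteins, the protein components of the ribosome outside mitochondria, shared a sign. Of 78 tested genes 76 had values above 0, where 51.4% of all genes did, with a median log2 fold change of 0.28. In 11 of them the unadjusted p was under 0.05 (3.68% of all genes on this side), and 0 were called. RPS6, the ribosomal protein phosphorylated after mTORC1 signalling, lay at 5.92, 9.31, 5.00, 9.53, 6.50 and 3.73 CPM at ZT01 and at 3.88, 3.75, 3.29 and 3.56 CPM at ZT16, a log2 fold change of 0.87 ± 0.24 (SE). RPS16 gave 0.59 ± 0.21. NT ZT01 replicate 4 carried much of this. Its summed level of the list was 7821 CPM, where the other ZT01 animals had 4368 to 5232 CPM and the ZT16 animals 3775 to 5046 CPM. That animal also had the highest ZT01 sum of the autophagy, antioxidant and proteasome lists, and the lowest of the monocyte and Toll-like receptor lists. Without that animal the median of the ribosomal list was 0.14, with 64 of 78 genes above 0 (50.5% of all genes). On the higher side 5 then had an unadjusted p under 0.05 (3.32% of all genes). In males alone, which also leaves that animal out, the median was 0.18, with 65 of 78 above 0 (49.9% of all genes). There 11 had an unadjusted p under 0.05 on the higher side (3.35% of all genes), as many as in the main fit.

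The respiratory chain genes, which encode the complexes of mitochondrial oxidative phosphorylation, had a median of 0.21, with 58 of 69 above 0 (51.4% of all genes) and 13 at an unadjusted p under 0.05 on the higher side (3.68% of all genes). The groups did not overlap in 5 of them, ATP5MC1, ATP5MC2, NDUFS7, UQCRB and UQCRFS1, each higher at ZT01, where 0.926% of all genes were. UQCRB, a subunit of complex III, lay at 3.32 to 5.72 CPM and at 2.99, 3.08, 3.29 and 2.24 CPM, a log2 fold change of 0.72 ± 0.18 (SE). NDUFS7, a subunit of complex I, gave 0.75 ± 0.20, ATP5MC2 0.44 ± 0.16 and UQCRFS1 0.19 ± 0.12, these 3 named after their values were seen. Without NT ZT01 replicate 4 the median was 0.10, with 44 of 69 above 0 and 10 at an unadjusted p under 0.05 on the higher side, where 3.32% of all genes were, and in males alone it was 0.18. The proteasome list had a median of 0.18, with 31 of 40 above 0 and 6 at an unadjusted p under 0.05 on the higher side (3.68% of all genes). Without NT ZT01 replicate 4 there were 3 of 40 (3.32% of all genes), and in males alone 5 of 39 (3.35% of all genes). PSMB4 gave 0.44 ± 0.15 and PSMD13 0.39 ± 0.14 (log2 fold change ± SE). PSMB4 and PSMC1 had no overlap, each higher at ZT01, where 0.926% of all genes were. PSMC1, at 0.41 ± 0.15, was named after its values were seen.

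General transcription factors and RNA polymerase II subunits had a median of 0.08, with 7 of 41 at an unadjusted p under 0.05 on the higher side (3.68% of all genes). Without NT ZT01 replicate 4 there were 5 (3.32% of all genes), and in males alone 4 (3.35% of all genes). GTF2H4, a subunit of TFIIH, lay at 0.903 to 1.26 CPM at ZT01 and at 0.532, 0.606, 0.495 and 0.609 CPM at ZT16 with no overlap, a log2 fold change of 0.91 ± 0.23 (SE), and POLR2K gave 0.75 ± 0.27. ERCC3, of the same complex as GTF2H4, also did not overlap, with a log2 fold change of 0.24 ± 0.15, and was named after its values were seen. Over all genes 0.926% were without overlap on the higher side. Translation factors had a median of -0.01, with EEF1D at 0.35 ± 0.18 and EIF2S2 at 0.30 ± 0.16, and so did not share the sign of the ribosomal proteins. Of the ribosome assembly factors 31 of 42 lay above 0 (51.4% of all genes) with a median of 0.15. KRR1 gave 0.88 ± 0.27 there, while the RNA helicase DDX21 lay lower at ZT01 in every animal, at 4.15 to 6.27 CPM against 6.60, 6.81, 9.11 and 7.71 CPM, a log2 fold change of -0.50 ± 0.14 (SE).

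Markers of the blood cell types were read as lists, and 0 of their genes were called. Of 22 tested platelet genes 19 lay below 0 (48.6% of all genes), with a median of -0.32 and 5 at an unadjusted p under 0.05 on the lower side (3.76% of all genes). These were THBS1, ITGB3, ITGA2B, MMRN1 and GP6, the last 3 named after their values were seen. ITGA2B and ITGB3 form the fibrinogen receptor of platelets. ITGB3 lay at 18.5 to 34.7 CPM with a median of 23.5 at ZT01 and at 44.6, 30.8, 30.0 and 38.9 CPM at ZT16, a log2 fold change of -0.59 ± 0.19 (SE), and ITGA2B gave -0.57 ± 0.19. THBS1, the adhesive protein thrombospondin of platelet granules, lay at 0.255 to 1.55 CPM and at 2.08, 3.05, 1.92 and 1.38 CPM, a log2 fold change of -1.26 ± 0.38 (SE). MMRN1 gave -0.54 ± 0.19 and the collagen receptor GP6 -0.52 ± 0.20. In all 5 genes the groups overlapped. Without NT ZT01 replicate 4 the median was -0.36 with 8 genes at an unadjusted p under 0.05, in males alone it was -0.33 with 6, and without NT ZT16 replicate 1, the animal with the highest platelet sum, it was -0.18 with 3. Over all genes the shares on this side were 4.07%, 3.79% and 2.53% in these 3 settings.

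Genes of NK and other cytotoxic cells had the lowest median of any list at -0.48, with 17 of 19 tested genes below 0 (48.6% of all genes) and 4 at an unadjusted p under 0.05 on the lower side (3.76% of all genes). The size of the median depended on 1 animal. NT ZT16 replicate 1 had a summed level of 277 CPM, the other ZT16 animals 169, 203 and 76.0 CPM and the ZT01 animals 82.2 to 187 CPM, so that the lowest animal of all was also at ZT16. Without NT ZT16 replicate 1 the median was -0.12, with 13 of 21 below 0 and 0 at an unadjusted p under 0.05. The NK receptors KLRC1 and NCR1 gave log2 fold changes of -0.78 ± 0.30 and -0.80 ± 0.32 (SE). KLRD1, the partner chain of KLRC1, gave -0.81 ± 0.36 and the protease inhibitor CST7 -0.67 ± 0.28, these 2 named after their values were seen. KLRD1 was at 10.5 CPM in NT ZT16 replicate 1 and at 2.34 to 5.33 CPM in the other ZT16 animals, and its log2 fold change without that animal was -0.33, where CST7 gave -0.37, KLRC1 -0.52 and NCR1 -0.61.

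Of 21 tested neutrophil genes 18 lay above 0 (51.4% of all genes), with a median of 0.28. On the higher side 2 had an unadjusted p under 0.05 (3.68% of all genes). S100A8, a calcium-binding alarmin of neutrophils, lay at 6.13, 7.02, 5.21, 8.21, 2.46 and 8.47 CPM at ZT01 and at 2.81, 5.42, 2.95 and 2.68 CPM at ZT16, so that ZT01 replicate 5 was below all ZT16 animals while ZT16 replicate 2 was above ZT01 replicates 3 and 5. Its log2 fold change was 0.83 ± 0.30 (SE), and PADI4, the enzyme that citrullinates histones in neutrophils, gave 0.42 ± 0.19. Without NT ZT01 replicate 4 the median was 0.40 with 5 genes at an unadjusted p under 0.05, in males alone it was 0.44 with 4, and without NT ZT16 replicate 1 it was 0.21 with 1. Over all genes the shares on the higher side were 3.32%, 3.35% and 2.85% in these 3 settings. Of the 8 tested eosinophil and basophil genes 7 lay above 0 (51.4% of all genes), with a median of 0.30. IL3RA gave 0.67 ± 0.20 and HDC, the histamine-forming enzyme, -0.49 ± 0.24. Monocyte genes had a median of 0.11 over 23 genes, with AIF1 at 0.48 ± 0.23 and IRF8 at -0.37 ± 0.25.

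T cell genes had a median of -0.07 over 24 genes, with 2 at an unadjusted p under 0.05, both lower at ZT01. Over all genes 3.76% were on that side and 7.44% on either side. IL7R, the interleukin-7 receptor, lay at 5.11, 6.45, 5.47, 2.71, 7.42 and 13.1 CPM at ZT01 and at 7.69, 9.47, 17.7 and 17.8 CPM at ZT16. Only ZT01 replicate 6 reached the ZT16 range, and the log2 fold change was -0.98 ± 0.34 (SE). TRAT1, an adaptor of the T cell receptor, gave -0.57 ± 0.25. B cell genes had a median of 0.09 over 21 genes, 13 of them above 0. On the lower side 2 had an unadjusted p under 0.05 (3.76% of all genes). JCHAIN, which joins IgM and IgA, lay at 12.3 to 24.4 CPM at ZT01 and at 23.2, 29.2, 24.2 and 27.1 CPM at ZT16, a log2 fold change of -0.68 ± 0.19 (SE), and TNFRSF17, the plasma cell receptor BCMA, gave -1.22 ± 0.48 without overlap at 0.0676 to 0.452 CPM against 0.465 to 1.08 CPM. Both are known from antibody-secreting cells. They were named as the 2 genes of lowest p on the list, and a shift of these cells was not tested. The list of adhesion and trafficking receptors, CXCR4 included, had a median of -0.05 over 31 genes, and S1PR1, the receptor lymphocytes need to leave lymph nodes, gave -0.29 ± 0.15.

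Erythroid genes other than haemoglobin had a median of -0.10 over 38 genes, with 18 above 0. RHAG gave -0.80 ± 0.28 (log2 fold change ± SE). Their summed level in NT ZT01 replicate 4 was 43741 CPM, where the other ZT01 animals had 18257 to 28534 CPM and the ZT16 animals 22909 to 35063 CPM. Of these genes 1 had an unadjusted p under 0.05 on the higher side and 2 on the lower (3.68% and 3.76% of all genes). Without that animal the median was -0.28, with 8 of 38 above 0 (50.5% of all genes). On the lower side 7 then had an unadjusted p under 0.05 (4.07% of all genes). In males alone the median was -0.34, with 8 such genes (3.79% of all genes). Without NT ZT16 replicate 1 the median turned to 0.03, with 22 of 38 above 0 (51.4% of all genes). There 2 had an unadjusted p under 0.05 on the higher side and 0 on the lower (2.85% and 2.53% of all genes). Among haemoglobin genes HBE1 gave -0.83 ± 0.55 and HBB 0.54 ± 0.47, the latter -0.10 without NT ZT01 replicate 4.

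**Figure D5:**
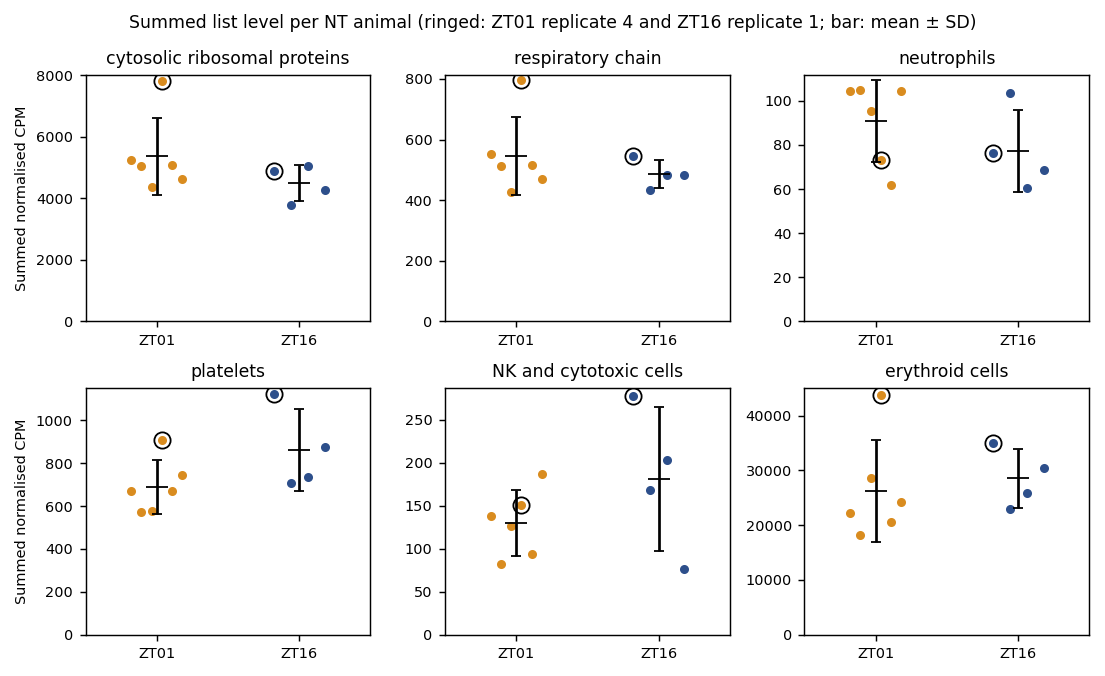
Summed normalised CPM (y axis, linear from 0) of 6 gene lists in each NT animal at ZT01 (6 points) and ZT16 (4 points), with bars for the mean ± SD and rings around ZT01 replicate 4 and ZT16 replicate 1. ZT01 replicate 4 is highest in the ribosomal, respiratory chain and erythroid lists, and ZT16 replicate 1 is highest in the platelet and NK lists.

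The heat shock and chaperone list depended on 1 animal as well. Its median was -0.20, with 16 of 24 below 0, and 0.03 without NT ZT16 replicate 1. The inducible HSPA1A was at 11.5 CPM in that animal and at 2.20 to 2.44 CPM in the other ZT16 animals, close to the 1.59 to 2.65 CPM of ZT01, and its log2 fold change of -1.01 ± 0.41 (SE) became -0.02 without it. CHORDC1 gave -0.46 ± 0.22, also with its highest value, 11.7 CPM, in that animal. The cold-induced RNA-binding proteins RBM3 and CIRBP gave 0.29 ± 0.15 and 0.34 ± 0.20 (log2 fold change ± SE). RBM3 was at 9.05 to 14.6 CPM at ZT01 and at 9.33, 10.4, 9.21 and 10.5 CPM at ZT16. SR family splicing factors together with the CLK and SRPK kinases that phosphorylate them had a median of 0.17 over 18 genes, with SRSF3 at 0.30 ± 0.14 and SRSF2 at 0.32 ± 0.17.

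In immune signalling, interferon-stimulated genes had a median of -0.04 over 30 genes, with ADAR at -0.47 ± 0.18 and the ubiquitin ligase TRIM25 at -0.53 ± 0.21 (log2 fold change ± SE). Toll-like receptors and their adaptors had a median of -0.07 over 23 genes. IRAK3, an inhibitor of this pathway, lay at 3.33 to 4.65 CPM at ZT01 and at 2.35, 2.29, 3.27 and 2.26 CPM at ZT16 with no overlap, a log2 fold change of 0.65 ± 0.16 (SE), and TICAM2 gave -0.82 ± 0.45. Cytokine genes had a median of 0.09 over 15 genes (LTB 0.41 ± 0.20, CCL5 -0.52 ± 0.33 and -0.11 without NT ZT16 replicate 1), genes of class I antigen processing 0.08 over 10 (TAP1 0.24 ± 0.14, PSMB9 0.19 ± 0.17) and those of class II -0.04 over 3 (CD74 0.17 ± 0.21, RFX5 -0.15 ± 0.22). All 10 tested class I genes had intervals within 1 of 0. Of 29 proliferation genes 2 had an unadjusted p under 0.05, both lower at ZT01, where 3.76% of all genes were (7.44% on either side). They were the kinetochore motor CENPE at -0.86 ± 0.32 and cyclin B1 (CCNB1) at -1.15 ± 0.47, and the list median was -0.05. Without NT ZT16 replicate 1 the median was 0.04, with 2 of 30 genes at an unadjusted p under 0.05 on the higher side and 0 on the lower (2.85% and 2.53% of all genes).

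In metabolism, 0 of the fatty acid oxidation and fasting genes (26 tested, median 0.10) and 0 of the glycolysis genes (24 tested, median -0.08) had an unadjusted p under 0.05. The enzymes of fatty acid oxidation ECH1 and ACADVL gave 0.52 ± 0.25 and 0.33 ± 0.18, and the glycolysis genes HK2 and LDHB gave -0.46 ± 0.27 and -0.51 ± 0.32 (log2 fold change ± SE), LDHB with -0.048 without NT ZT16 replicate 1. Genes of sterol synthesis and uptake had a median of -0.05 over 30 genes, with the mevalonate pathway enzyme MVD at 0.60 ± 0.22, and with MYLIP, which marks the LDL receptor for degradation, at -0.53 ± 0.19. Autophagy genes had a median of 0.04 over 35 (ATG4D 0.44 ± 0.20, WDR45 0.30 ± 0.14), antioxidant genes 0.05 over 35 (BACH1 -0.34 ± 0.14, MSRA 0.78 ± 0.33) and apoptosis regulators 0.02 over 26 (PMAIP1 0.58 ± 0.23, CASP8 -0.33 ± 0.14). Of the sex-linked genes, the X-linked USP9X and DDX3X gave -0.34 ± 0.14 and -0.65 ± 0.27. UTY on the Y chromosome had 0 counts in both females and 15 to 71 counts in the males, as the labels give.

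The same times were compared in the HT animals, 5 at ZT01 and 4 at ZT16, which share no library with the NT comparison. In HT animals time and torpor entry cannot be told apart, and all 4 HT animals at ZT16 were female. The 4 NT animals at ZT16 were male, so state and sex cannot be told apart at that time. There edgeR called 3 of 10748 genes (0.0279%), each higher at ZT01, namely CALHM2, THBD and TRAF3IP1, and DESeq2 called 169. Of the 790 genes at an unadjusted p under 0.05 in NT that were tested in HT, 472 (59.7%) had the same sign there, where 52.4% of all 10552 genes did. The difference between the NT and HT comparisons was tested in 1 model, and 0 of 11145 genes passed in edgeR (0%), with 1008 (9.04%) at an unadjusted p under 0.05.

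FKBP5 was at 1.51 ± 0.387 CPM (SD, n = 5) and 1.90 ± 0.404 CPM (SD, n = 4) in HT animals, a log2 fold change of -0.33 ± 0.22 (SE). The NT difference was lower by -1.28 ± 0.35 on the log2 scale (unadjusted p = 0.00139, adjusted p 0.400 in edgeR). PER1 was in HT animals at 2.81 and 2.78 CPM, with a log2 fold change of -0.0013 ± 0.20 and a difference between states of -0.87 ± 0.31 (SE, adjusted p 0.460 in edgeR). PER2 had the larger estimate in HT animals, at -1.06 ± 0.24 against -0.53 ± 0.25 in NT, with a difference of 0.54 ± 0.33 (SE). GOLGA3 had like values in both states, -0.97 ± 0.26 in HT and -0.95 ± 0.24 in NT animals, and its difference was 0.03 ± 0.36. ATP5MC1 and NOC4L gave 0.13 ± 0.15 and 0.05 ± 0.15 in HT animals. Their differences between states were 0.60 ± 0.21 and 0.82 ± 0.24 (SE, adjusted p 0.421 and 0.400 in edgeR). The platelet list had a median of 0.35 in HT against -0.32 in NT animals, and ITGA2B gave 0.49 ± 0.26 against -0.57 ± 0.19, a difference of -1.06 ± 0.33 (SE, adjusted p 0.415 in edgeR). Whether these lists differ between the states was not tested as a list.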

How the data were processed

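The labels and the study's methods describe paired-end sequencing of blood pellet RNA. From trimmed reads of all samples together the authors built a de novo assembly, named each contig by its best human protein match, aligned the reads to it and counted them. The deposited values are these raw counts per human gene symbol, so contigs that share a symbol cannot be told apart. Of the counts between 1 and 49 in the 10 libraries, 67.4% were even, so small counts may not stand for single fragments, and halved counts were tried.

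ZT01 was compared with ZT16 in edgeR 4.0.16 (R 4.3.3, limma 3.58.1) after TMM scaling and filterByExpr (minimum count 10), with no covariate and Benjamini-Hochberg adjustment. DESeq2 1.42.0, limma voom and the settings of the closing section were alternatives. Each animal counted once. No 2 of the 10 libraries were copies (chi-square per degree of freedom at least 9.11 over 45 pairs). Named genes were the 6 of lowest p in each direction, every tested clock gene and the 2 of lowest p in each of the other 37 lists. Some of these genes are not reported here. The animals, genes and lists were chosen with earlier results of these data known. The fits were tested on simulated data. No sequences were used here.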

Additional observations from a re-analysis of the deposited data

Results flagged for a closer look

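In groups of 4 or 6 animals, a value was singled out when its gap to the nearest other animal was large for the range of the group (Dixon's 95% criterion), which chance meets in about 1 in 20 groups. Of 234 groups checked over the named genes and the haemoglobin share, 20 met it, 7 of them through NT ZT01 replicate 4. That animal was highest for HBB (1334 CPM), EEF1D (45.3 CPM), ECH1 (7.06 CPM), PSMC1 (10.5 CPM) and the haemoglobin share (93.0%), and lowest for ADAR (3.04 CPM) and CASP8 (2.998 CPM). At ZT01, DDIT4 was highest in replicate 2 (0.906 CPM) and ERCC3 in replicate 6 (5.84 CPM).

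At ZT16, HSPA1A stood out in replicate 1 (11.5 CPM), and in replicate 2 this held for TIMELESS (2.28 CPM), TNFRSF17 (1.08 CPM), S100A8 (5.42 CPM) and SRSF2 (31.7 CPM), each the highest, and for MVD (6.58 CPM), the lowest. FBXW11 (4.46 CPM) and IRAK3 (3.27 CPM) were highest in replicate 3. KCNMB1 (1.73 CPM), TNNT2 (7.79 CPM) and ENG (1.96 CPM) were highest in replicate 4.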

How the results depend on the processing

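Of 2424 values of 116 named genes under up to 21 alternatives, 2378 kept their direction and their side of the adjusted threshold, 5 crossed it and 41 changed sign, in 11 genes, 0 of them called. The cause of these changes was not tested. The count of called genes was 0 under the alternatives tried other than DESeq2 (3) and the fit of all 36 animals (2), and DESeq2 called 169 genes in HT animals. The count at an unadjusted p under 0.05 ran from 566 to 1218 when 1 animal was left out, the highest without NT ZT01 replicate 6. With few counts outside haemoglobin, low genes such as KCNMB1 and PER3 are imprecise. Each library came from a different animal, so replicate numbers were not taken to pair animals. After the group mean of each gene was subtracted, log CPM of same-numbered animals correlated at 0.00952 to 0.125. On this measure 0 of 4 ZT16 animals correlated best with their own number. With a replicate block 0 genes were called, 1149 at an unadjusted p under 0.05, and log2 fold changes changed sign for ARNTL (-0.039), CLOCK (-0.11), RORA (-0.26), NOCT (0.54) and TF (0.035). Voom did so for CRY2 (-0.042), RORA (-0.015) and NOCT (0.047), sex as a covariate for NR1D1 (-0.025), BTRC (-0.038) and HBB (-0.083), and males alone for NR1D1 (-0.028), BTRC (-0.043) and HBB (-0.084). With 1 animal left out, log2 fold changes ran from -0.051 to 0.26 for CLOCK, -0.11 to 0.10 for CRY2, -0.030 to 0.38 for NR1D1, -0.22 to 0.50 for RORA, -0.11 to 0.17 for TEF, -0.11 to 0.44 for BTRC, -0.46 to 0.44 for NOCT, -0.099 to 0.71 for HBB, -0.086 to 0.33 for PDGFRB and -0.45 to 0.18 for TF. The list medians without NT ZT01 replicate 4, without NT ZT16 replicate 1 and in males alone were added after seeing the data.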
